A study of Mus musculus with 9 samples.

Results

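Lungs of tumour-bearing mice that had received an antibody against PD1, either free or as nanocapsules of the antibody, were pooled and compared with lungs of mice that had received phosphate-buffered saline (PBS). Group membership came from the sample titles. The 3 anti-PD1 and the 3 nanocapsule lungs made up the 6 treated lungs, the 3 PBS lungs were the controls, and these 9 lungs are all the lungs analysed here. What both forms share was read as the set of genes for which every treated lung lay on the same side of every PBS lung.

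All mice were female BALB/c mice, aged 4 to 6 weeks per the labels, with 4T1 cells, a mouse mammary carcinoma line, placed in the right flank. PBS, antibody or nanocapsules were given on days 7 and 14, and lungs were taken on day 21, so the PBS lungs also came from tumour-bearing mice. The labels give 150 µg per mouse in a wording that leaves it unclear whether this holds for the free antibody too. Neither a control antibody nor empty capsules were analysed here, so the antibody, the capsule and the act of giving a protein cannot be told apart from each other in the pooled comparison. The lungs are numbered within groups without naming animals, and p-values therefore measure the spread between these samples, which may in part be technical.

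PD1, the product of Pdcd1, is a receptor that restrains T cells after activation, and Cd274 encodes its ligand PD-L1. Antibodies that block the receptor release this brake and can cause inflammation of healthy organs, the lung among them. The series title names such immune-related adverse events as the subject of the study. Heat shock proteins are chaperones that fold proteins, and the inducible ones are switched on by the transcription factor HSF1, which binds repeated short half-sites upstream of its targets. Eosinophils and mast cells are granulocytes of type 2 immunity that carry cell-specific granule proteins, which makes their transcripts useful markers in whole lung RNA.

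Expression was given as TPM, an abundance per transcript length that sums to the same total in every library, so the sequencing depth was unknown. Of 45706 genes in the table, 22232 were at 0 in all lungs, 10226 were above 0 but too low for testing, and 13248 with 1 TPM or more in 3 lungs or more were tested. Differences are on the log2(TPM + 1) scale, which understates changes of weakly expressed genes, and were tested with limma, with p-values adjusted over all tested genes. Means are followed by the SD over the 6 treated lungs (n = 6) and then over the 3 PBS lungs (n = 3), treated lungs first.

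A single gene passed the test at an adjusted p of 0.05, which is 0.00755% of the tested genes. This was Hspa1b, a stress-inducible member of the HSP70 chaperones, which fell in the treated lungs. No gene rose by the same test. At an unadjusted p under 0.05, limma gave 791 lower genes (5.97%) and 288 higher genes (2.17%). All 6 treated lungs lay below all 3 PBS lungs for 244 genes (1.84% of the tested genes) and above them for 73 genes (0.551%), 317 genes in all (2.39%). For a single gene such a separation has a two-sided exact permutation p of 0.0238, the smallest that the 84 assignments of 6 and 3 lungs allow, so the 317 genes are given as a description and their number is not read as an effect of treatment. Over all tested genes 7821 had a lower mean in the treated lungs (59%) and 5427 a higher one (41%), and the median log2 difference was -0.04. The split of separated genes depended on the scaling, with 209 below and 146 above under median-of-ratios scaling, and 214 and 109 after rescaling without the most abundant gene groups. It also depended on single lungs, since the count below was 915 without nanocapsule lung 3 and to 437 to 665 without any 1 of the PBS lungs, and the count above to 315 without PBS lung 3. For 8 of the lower genes fewer than 3 treated lungs reached 1 TPM, so that they were tested only through the PBS lungs, and for 5 of these no treated lung did, which fixed their side. For 11 of the higher genes no PBS lung did.

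Most of these separations were narrow. For the genes with all treated lungs below, the median size of the log2 difference was 0.30, and for those with all treated lungs above it was 0.29. Only 6 of the 244 lower genes kept a gap of at least 1.5-fold between the lowest PBS lung and the highest treated lung, and 3 kept 2-fold: Hspa1b (2.89), Prg2 (2.20) and Hspa1a (2.06). The other 3 were Ear6 (1.56), an eosinophil ribonuclease, and 2 variable segments of antigen receptors, Ighv9-4 (1.66) and Trav4d-4 (1.56). The 2 segments were named after their values were seen. Trav4d-4 was tested only through the PBS lungs, with 0 to 1.69 TPM in the treated lungs. None of the 73 higher genes had a gap of 1.5-fold, and none had a log2 difference over 1, against 19 of the lower genes. Of these 6 widest separations, 2 belonged to heat shock genes and 2 to eosinophil genes.

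The anti-PD1 and nanocapsule lungs overlapped for 217 of the 244 lower genes and for 59 of the 73 higher genes (88.9% and 80.8%), against 8831 of all tested genes (66.7%). The limma test of nanocapsule against anti-PD1 called none of the 317 (15 of the lower and 4 of the higher genes at an unadjusted p under 0.05), against 14 of all tested genes (0.106%; 3670 at an unadjusted p under 0.05). The 317 genes were chosen for having both forms on the same side of PBS, which by itself disfavours genes that differ between the forms. These shares are therefore not read as agreement of the forms. A form on its own gave 1 called gene against PBS in each case (0.00755%), and these comparisons share the PBS lungs.

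The libraries differed in some respects that bear on the count. Between 12194 and 13407 genes reached 1 TPM in a lung. The rank correlation, across 13200 genes, between transcript length and a library's deviation from the mean was 0.044 to 0.186 in the PBS lungs, -0.046 to -0.142 in the anti-PD1 lungs, -0.148 and -0.112 in nanocapsule lungs 1 and 2, and 0.201 in nanocapsule lung 3. The lower genes had a median longest transcript of 4113 nt and the higher genes of 1951 nt, against 3063 nt over all tested genes. Transcripts over 5000 nt made up 37.9% of the lower genes with a length and 1.39% of the higher genes, against 19.3% of all. Of 969 genes for which exactly 5 treated lungs lay below all PBS lungs, nanocapsule lung 3 was the exception in 671. Of 283 such genes in the other direction, nanocapsule lung 2 was the exception in 105 and nanocapsule lung 3 in 82. When each library was corrected for length and GC content, 253 genes lay below and 61 above, and 170 and 42 of these were shared with the uncorrected sets. The part of transcript length in the remaining separations was not tested.

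**Figure D1:**
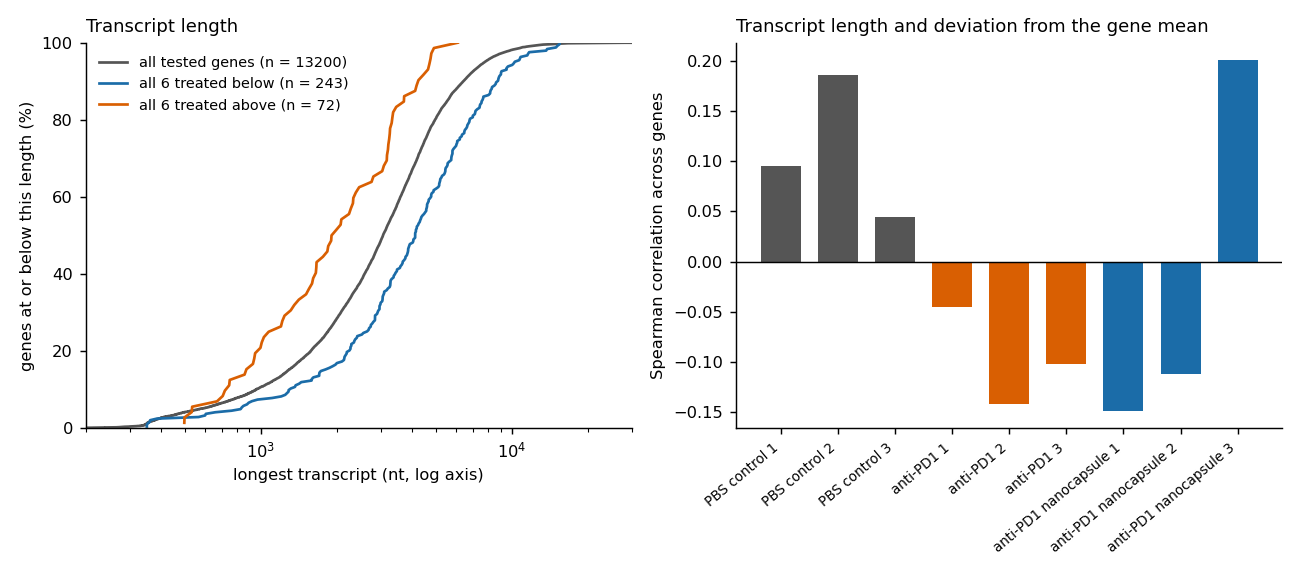
Left, the cumulative percent of genes against the length of the longest annotated transcript (nt, log axis) for genes with all 6 treated lungs below the PBS lungs, genes with all 6 above and all tested genes, with medians of 4113, 1951 and 3063 nt. Right, bars of the Spearman correlation across genes between transcript length and each library's deviation from the mean, where nanocapsule lung 3 (0.201) stands with the PBS lungs on the positive side.

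Heat shock genes gave the widest separation. Of 27 tested chaperones and co-chaperones, 23 had a lower mean in the treated lungs and 8 had all treated lungs below all PBS lungs (29.6%, against 1.84% of all tested genes), while none had all above. The list's median log2 difference was -0.28, with -0.15 for the free antibody and -0.41 for the nanocapsules, against -0.04 over all tested genes. Before the values, 4 promoters are shown because HSF1 is known to bind such half-site pairs. Windows were read from RefSeq promoters on build GRCm38.p6, 5′ to 3′ on the strand of the gene, with the half-sites of the pair in capitals.
Hspa1b: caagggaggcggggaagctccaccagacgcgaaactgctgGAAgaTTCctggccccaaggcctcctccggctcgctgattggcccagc
Hspa1a: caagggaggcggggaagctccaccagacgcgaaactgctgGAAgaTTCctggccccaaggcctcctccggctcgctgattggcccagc
Dnaja1: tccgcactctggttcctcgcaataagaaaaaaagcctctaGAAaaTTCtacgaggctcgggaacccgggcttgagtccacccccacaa
Hsph1: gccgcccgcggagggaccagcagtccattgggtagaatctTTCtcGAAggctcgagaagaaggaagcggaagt

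These windows lie at chr17:34959295-34959382 and chr17:34972213-34972300 on the minus strand for Hspa1b and Hspa1a, chr4:40722304-40722391 on the plus strand for Dnaja1, and chr5:149636337-149636409 on the minus strand for Hsph1. The motifs searched were GAANNTTC and TTCNNGAA, which read the same on both strands and can overlap each other, in the 250 bases before each start. Either was found in 12.8% of 32851 promoters and in 1146 of 9382 matched tested genes. Of 21 matched heat shock genes 11 held one, 4 of the 7 with all treated lungs below and 7 of the other 14. Over all genes with treated lungs below, 10.7% of the matched promoters held one, against 12.2% of all matched tested genes. The windows of Hspa1b and Hspa1a are the same, and the 250 bases differ at 3 positions.

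Hspa1b, at chromosome 17, 34956436 to 34959238, was at 29.1, 53.5 and 39.4 TPM in PBS lungs 1 to 3. The anti-PD1 lungs had 9.22, 10.1 and 9.64 TPM and the nanocapsule lungs 6.04, 8.71 and 5.80 TPM. Treated and PBS lungs did not overlap, and PBS lung 2 was the highest of all. The means were 8.24 ± 1.86 and 40.7 ± 12.2 TPM, which gave a limma adjusted p of 0.00416 for a log2 difference of -2.16 (SE 0.18). The limma adjusted p ranged from 0.00243 to 0.0486 with 1 lung left out. The call was lost without a filter on low genes (limma adjusted p = 0.0605) and without the library highest in Rag1, a gene of immature lymphocytes, in each group (limma adjusted p = 0.132). The log2 differences in these settings were -2.16 and -2.24, the latter with fewer lungs in each group.

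Hspa1a, its neighbour at 34969190 to 34972156, encodes nearly the same protein, and reads of the 2 genes may be exchanged, so the level of each is uncertain. PBS lungs 1 to 3 had 19.6, 44.6 and 28.1 TPM, the anti-PD1 lungs 8.41, 9.54 and 9.47 TPM, and the nanocapsule lungs 8.37, 8.71 and 8.57 TPM. The treated lungs hardly varied, with an SD of 0.526 TPM (n = 6), whereas the PBS lungs had one of 12.7 TPM (n = 3). Its log2 difference of -1.62 (SE 0.20) did not pass the test (limma adjusted p = 0.0723). It passed in 4 of 20 other settings: with the treated lungs fitted as 1 group, with a minimum of 5 TPM, and without PBS lung 1 or 2.

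Dnaja1, which stimulates the ATPase of HSP70, stood at 145 TPM in PBS lungs 1 and 2 and at 169 TPM in PBS lung 3. The anti-PD1 lungs lay between 94.3 and 115 TPM and the nanocapsule lungs between 72.0 and 88.6 TPM, so the nanocapsule lungs were the lower of the treated lungs. Its limma adjusted p was 0.0854, for a log2 difference of -0.71 (SE 0.10), and it passed under median-of-ratios scaling. Dnajb1, which delivers clients to HSP70, had means of 50.4 ± 1.57 and 64.8 ± 5.003 TPM and a log2 difference of -0.35 (SE 0.07).

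Chaperones of the HSP90 and HSP110 families and their helpers had smaller gaps. Hsp90aa1, the inducible HSP90, was at 79.7 ± 14.7 and 119 ± 11.2 TPM. Hsph1, a nucleotide exchange factor of HSP70, had a log2 difference of -1.07 (SE 0.22), and its highest treated lung, at 18.7 TPM, lay just under its lowest PBS lung, at 18.96 TPM. Chordc1 and Ahsa1, co-chaperones of HSP90, had log2 differences of -0.60 and -0.18 with gaps of 1.03-fold and 1.04-fold. Hspa8, the constitutive HSP70, overlapped between the groups at 724 ± 130 and 945 ± 173 TPM, as did Bag3, Hspb1 and Hsf1 itself. Hsf2, Cryab, Hspb8 and Dnaja4 were the 4 tested members without a lower mean.

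The heat shock list as a whole took 0.203% of the TPM in the treated lungs and 0.266% in the PBS lungs (two-sided exact permutation p = 0.0476, adjusted p = 0.238 over 5 shares, with 0.0238 as the smallest p that 84 assignments allow). Its summed TPM overlapped, at 1627 to 2501 in the treated lungs and 2338 to 3031 in the PBS lungs. Its mean log2(TPM + 1) relative to the PBS mean also overlapped, at -0.14 and -0.07 in anti-PD1 lungs 1 and 3 and -0.16 in PBS lung 2. The number of list members with all treated lungs below was 8 under both other scalings, 6 after the length and GC correction, and 12 without PBS lung 2. The share of all tested genes below was 1.58% and 1.64% under these scalings, 1.92% after the correction and 3.81% without PBS lung 2. Among the named genes, Dnajb1 lost the separation under median-of-ratios scaling and Hsph1 after the length and GC correction.

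**Figure D2:**
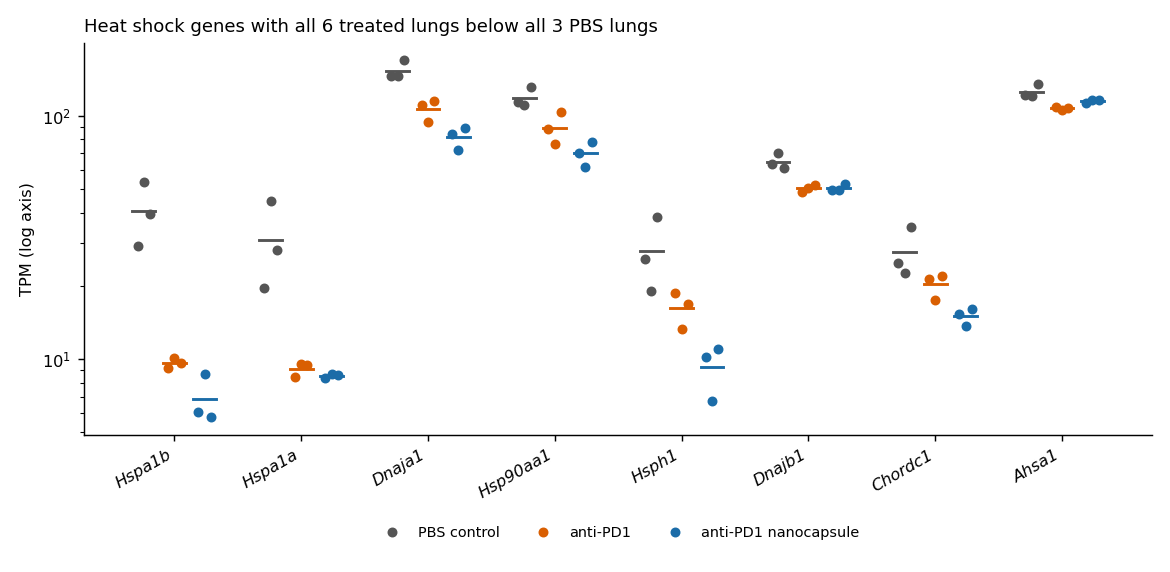
TPM on a log axis of the 8 heat shock genes with all treated lungs below the PBS lungs, 1 point for each lung in the 3 groups, with short lines at the group means. Hspa1b shows the widest gap, with 29.1 to 53.5 TPM in the PBS lungs and 5.80 to 10.1 TPM in the treated lungs.

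In the eosinophil list, wide gaps were limited to Prg2 (2.20-fold) and Ear6 (1.56-fold). Of 13 genes in the list 11 were tested, with Epx and Il5 too low, and 9 had a lower mean. All treated lungs lay below all PBS lungs for 6 of the 11 (54.5%, against 1.84% of all tested genes): Prg2, Ear6, Alox15, Retnla, Ccr3 and Il5ra. The gaps were narrower for Alox15 (1.12-fold), Retnla (1.04-fold), Ccr3 (1.05-fold) and Il5ra (1.30-fold). Il5ra and Prg3 were tested only through the PBS lungs, since 1 treated lung reached 1 TPM for each, and without this pair the count was 5 of 9. The median log2 difference was -0.75, with -0.87 for the free antibody and -0.73 for the nanocapsules. The mean log2(TPM + 1) of the 11 genes was lower in every treated lung than in every PBS lung, but their summed TPM overlapped, at 306 to 567 in the treated lungs and 487 to 592 in the PBS lungs. Ear1, the member with the highest TPM, was at 299 ± 98.8 and 273 ± 56.1 TPM. In whole lung RNA, fewer cells of a type and less RNA per cell cannot be told apart.

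Prg2, the major basic protein of eosinophil granules, at chromosome 2, 84980461 to 84983632, had 29.999, 47.1 and 27.6 TPM in PBS lungs 1 to 3. The anti-PD1 lungs had 3.49, 7.41 and 9.06 TPM and the nanocapsule lungs 12.6, 10.2 and 10.3 TPM. Every anti-PD1 lung lay below every nanocapsule lung. Its log2 difference of -1.91 (SE 0.25) did not pass the test over all genes (limma adjusted p = 0.0770), and did with a minimum of 5 TPM or without anti-PD1 lung 1 or 3.

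Ear6, a ribonuclease of eosinophil granules, had 34.8, 47.4 and 26.9 TPM in PBS lungs 1 to 3 and between 7.75 and 17.2 TPM in the treated lungs (log2 difference -1.40, SE 0.21, limma adjusted p = 0.158). Alox15, the lipoxygenase of eosinophils and some macrophages, was at 10.4 ± 2.41 and 25.4 ± 13.2 TPM. PBS lung 2 was the highest lung for Prg2, Ear6 and Alox15, as for Hspa1a and Hspa1b. The receptors Ccr3, for eotaxin, and Il5ra, for interleukin 5, were low throughout, at 2.15 and 0.667 TPM in the treated lungs and at 4.29 and 1.67 TPM in the PBS lungs. Retnla, a secreted product of type 2 responses also made by macrophages, was at 50.4 ± 17.02 and 92.8 ± 17.1 TPM.

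The 2 members of the eosinophil list with a higher mean were Ear1 and Siglecf, with log2 differences of 0.08 and 0.17. Alveolar macrophages express both as well, and Alox15 and Retnla are also made by macrophages. Of the 20 alveolar macrophage genes 0 had all treated lungs below, against 1.84% of all tested genes. A part of macrophages in the values of the eosinophil list was not tested. Under median-of-ratios scaling the count of eosinophil genes with all treated lungs below was 3 instead of 6, and Alox15 was among those lost.

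In the mast cell and basophil list 9 of 14 tested members had a lower mean and 5 a higher one. Of 14 tested genes of the mast cell and basophil list, 3 had all treated lungs below, namely Mcpt4, Tpsb2 and Tpsab1 (21.4%, against 1.84% of all tested genes), and the list's median log2 difference was -0.11. Without Tpsab1, which was tested only through the PBS lungs, the count was 2 of 13. With a minimum of 5 TPM, 0 of 10 tested members had all treated lungs below, against 2.07% of all tested genes. The summed TPM of the 14 genes was 515 to 593 in the treated lungs and 650 to 833 in the PBS lungs, with no overlap, whereas their mean log2(TPM + 1) overlapped. Hdc, the histamine-forming enzyme and the member with the highest TPM, was at 394 ± 37.1 and 527 ± 102 TPM. Tpsb2, a tryptase of mast cell granules, had 4.30, 4.65 and 10.6 TPM in PBS lungs 1 to 3 and between 0.081 and 2.98 TPM in the treated lungs. Mcpt4, a mast cell chymase, had 3.02, 3.79 and 10.6 TPM in PBS lungs 1 to 3 and between 0.334 and 2.47 TPM in the treated lungs. PBS lung 3 held the top value of both. Tpsab1, another tryptase, was at 0.444 ± 0.302 TPM in the treated lungs, all under 1 TPM, so its direction was fixed by the filter. The basophil proteases Mcpt8 and Prss34 had log2 differences of -0.01 and -0.04, and the IgE receptor genes Fcer1a and Ms4a2 had differences of 0.00 and 0.18.

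**Figure D3:**
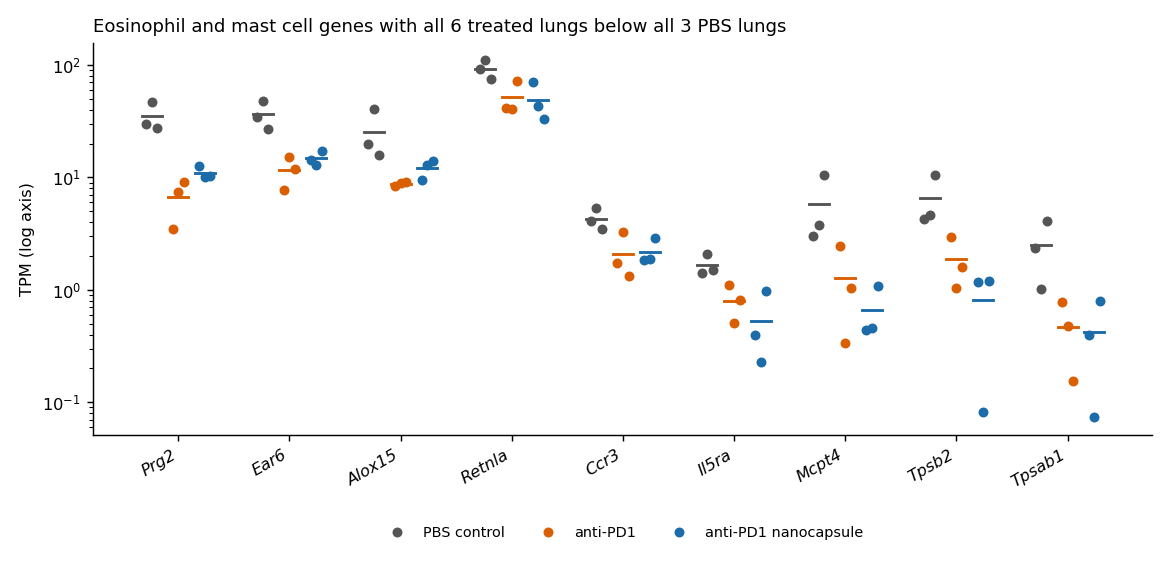
TPM on a log axis of the 6 eosinophil and 3 mast cell genes with all treated lungs below the PBS lungs, 1 point for each lung in the 3 groups, with short lines at the group means. Prg2 was 27.6 to 47.1 TPM in the PBS lungs and 3.49 to 12.6 TPM in the treated lungs.

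Other stress programmes were lower by value in many members but seldom separated. Of 25 immediate early genes 24 had a lower mean, with a median log2 difference of -0.21, and only Ier5, an early response gene linked to HSF1 activity, had all treated lungs below, at 258 ± 30.5 against 321 ± 25.5 TPM. This separation was absent under both other scalings. Of 23 genes of the unfolded protein response 22 had a lower mean, with a median of -0.14. Hspa5, the endoplasmic reticulum chaperone BiP, was at 226 ± 31.0 and 295 ± 23.2 TPM. Ddit3, the stress transcription factor CHOP, was at 31.0 ± 5.81 and 50.4 ± 11.5 TPM. Hspa5 and Ddit3 no longer separated after the length and GC correction, and Ddit3 also lost the separation under median-of-ratios scaling. Without PBS lung 3 the immediate early list had 8 members with all treated lungs below, against 3.3% of all tested genes in that setting. Without PBS lung 2 the unfolded protein response list had 7, against 3.81% of all tested genes. With all lungs the share was 1.84%.

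In the immune lists, single members separated. Cxcr5, the follicular homing receptor of B cells, was at 12.6 ± 3.15 and 20.4 ± 1.90 TPM, and all 17 tested B cell genes had a lower mean, although their median was -0.05 for the free antibody and -0.87 for the nanocapsules. Irf4, a transcription factor of plasma cells and activated lymphocytes, was at 4.22 ± 0.715 and 7.74 ± 1.91 TPM. Il1r2, the decoy receptor of interleukin 1 on neutrophils, was at 97.6 ± 8.34 and 138 ± 27.3 TPM. Among cytokines, Csf1, a growth factor of macrophages, was at 61.4 ± 5.93 and 83.3 ± 17.04 TPM, and Osm, the cytokine oncostatin M, at 366 ± 24.5 and 448 ± 42.9 TPM. P4ha1, a collagen hydroxylase induced by low oxygen, and Hnrnpc, an RNA-binding protein, had log2 differences of -0.30 and -0.15. Under median-of-ratios scaling Il1r2, Csf1, Osm and Hnrnpc lost the separation.

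Outside the lists, Ube2h, a ubiquitin-conjugating enzyme, was at 211 ± 22.2 and 284 ± 21.8 TPM. Pde7b, a cyclic AMP phosphodiesterase, was at 8.18 ± 1.22 and 14.3 ± 3.42 TPM. Map4k2, a kinase upstream of JNK, was at 102 ± 5.26 and 127 ± 2.08 TPM. Ube2h and Pde7b lost their separation under median-of-ratios scaling, and Map4k2 kept it.

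Genes with all treated lungs above all PBS lungs had small differences, and none belonged to a list. The 12 named here, those with the smallest p at a mean of 5 TPM or more once predicted genes, RIKEN clones, pseudogenes and receptor segments were left out, had log2 differences of 0.23 to 0.45. Gss, glutathione synthetase, had 6.06, 7.27 and 7.56 TPM in PBS lungs 1 to 3 and between 8.75 and 10.9 TPM in the treated lungs, the largest difference of the 12 (log2 difference 0.45, SE 0.12, limma adjusted p = 0.608). Stard3nl, a protein of late endosome membranes, was at 28.9 ± 1.02 and 22.99 ± 1.58 TPM. Srp9, a subunit of the signal recognition particle, was at 78.3 ± 7.37 and 61.2 ± 2.25 TPM. Aprt, which salvages adenine, was at 195 ± 9.04 and 167 ± 9.45 TPM. Kxd1, Pin4, Tm2d1, Olfm1, Zfand1, Nudt22, Cenpb and Cyp4f16 had log2 differences between 0.27 and 0.40. Under median-of-ratios scaling 9 of the 12 kept the separation, and Cyp4f16, Nudt22 and Olfm1 lost it. After the length and GC correction Cyp4f16, Kxd1 and Nudt22 lost it.

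**Figure D4:**
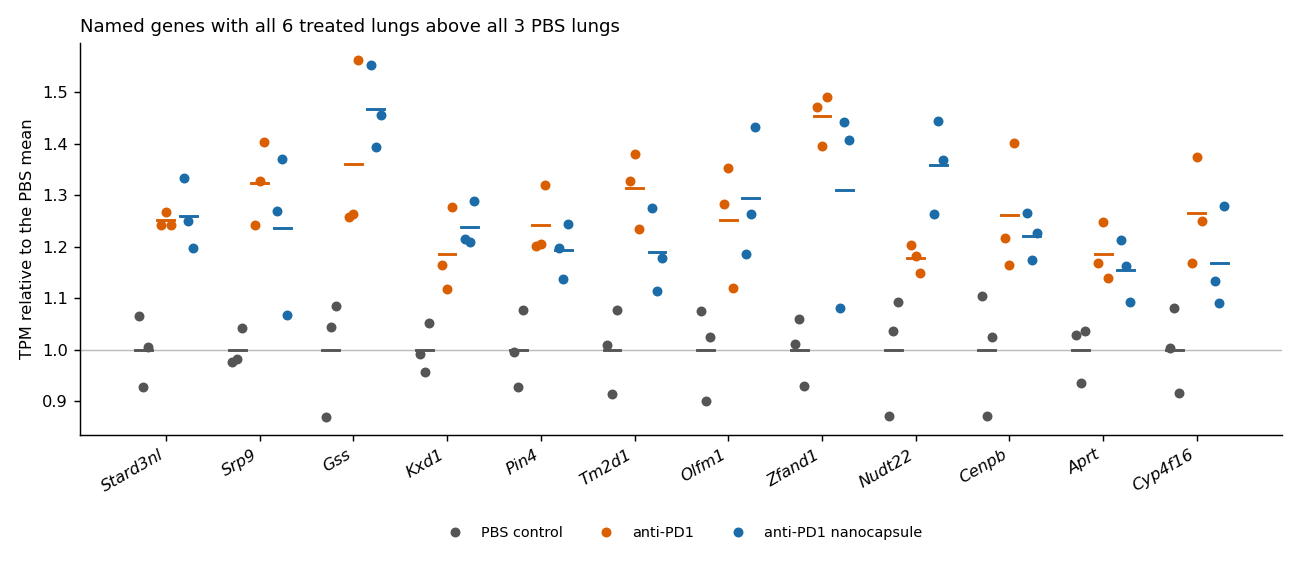
TPM of the 12 named higher genes relative to the mean of the PBS lungs for each gene, on a linear axis, 1 point for each lung in the 3 groups, with short lines at the group means. All treated points lie above all PBS points, with narrow gaps, as for Gss at 8.75 to 10.9 TPM against 6.06 to 7.56 TPM.

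Of the 44 lists, 33 had no member with all treated lungs on one side, among them the lists of T cells, cytotoxic cells, checkpoint genes, regulatory T cells and the type I and type II interferon responses. Of all tested genes 2.39% separated. At that share a list of this size often holds none, so this is not read as a result about these lists. By mean, 24 of 25 type I interferon genes were lower, with a median log2 difference of -0.28 (-0.25 for each form). Of 17 type II interferon genes 16 were lower, with a median of -0.21 (-0.09 for the free antibody, -0.31 for the nanocapsules). Over all tested genes 59% were lower, with a median of -0.04. The mean log2(TPM + 1) of each interferon list overlapped between treated and PBS lungs. Pdcd1, the gene of the antibody's target, had 2.60, 0.586 and 2.45 TPM in PBS lungs 1 to 3, while the anti-PD1 lungs had 5.31, 1.45 and 3.33 TPM and the nanocapsule lungs 0.680, 0.393 and 0.630 TPM. The treated lungs overlapped the PBS lungs and spanned a wider range. Cd274 was at 31.7 ± 11.8 and 32.5 ± 6.74 TPM, with every anti-PD1 lung above every nanocapsule lung. Gzmb, a cytotoxic protease, was at 13.3 ± 4.16 and 10.4 ± 2.37 TPM, and Ifng, the cytokine interferon gamma, at 2.74 ± 0.990 and 3.29 ± 1.48 TPM. Foxp3 and Ctla4, of regulatory T cells, had log2 differences of -0.44 (SE 0.17) and -0.28 (SE 0.25). For Ctla4 the pooled value joined 0.45 for the free antibody and -1.002 for the nanocapsules, and for Foxp3 -0.07 and -0.81. In both genes every nanocapsule lung lay below every anti-PD1 lung. Sftpc, the surfactant protein that marks alveolar type 2 cells of the lung, was present in every library and ranged from 629 to 3410 TPM in the treated lungs and from 343 to 1021 TPM in the PBS lungs. S100a8 and S100a9, the main neutrophil cytosolic proteins, had log2 differences of -0.05 (SE 0.19) and -0.01 (SE 0.20). These joined unlike values, with -0.35 for the free antibody and 0.26 for the nanocapsules in S100a8, and -0.24 and 0.23 in S100a9. Every nanocapsule lung lay above every anti-PD1 lung for both genes.

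For some lists the pooled median joined unlike values of the 2 forms. Endothelial genes had a median log2 difference of 1.17 for the free antibody and 0.01 for the nanocapsules, and T cell genes had 0.31 and -0.57. Neutrophil granule genes had -0.69 and 0.17, and 5 of these 20 were called between the forms by limma (against 0.106% of all tested genes). Genes of the mitochondrial genome had 0.70 and -0.38. Both forms were compared with the same PBS lungs. The T cell list was uneven between lungs. Relative to the PBS mean, its mean log2(TPM + 1) was 0.51, -0.51 and 1.04 in anti-PD1 lungs 1 to 3. It was -0.50 to -0.62 in the nanocapsule lungs and -0.29, -0.37 and 0.66 in PBS lungs 1 to 3. Rag1 was highest in anti-PD1 lung 3 (28.3 TPM) and PBS lung 3 (8.62 TPM), and a link between the 2 was not tested.

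**Figure D5:**
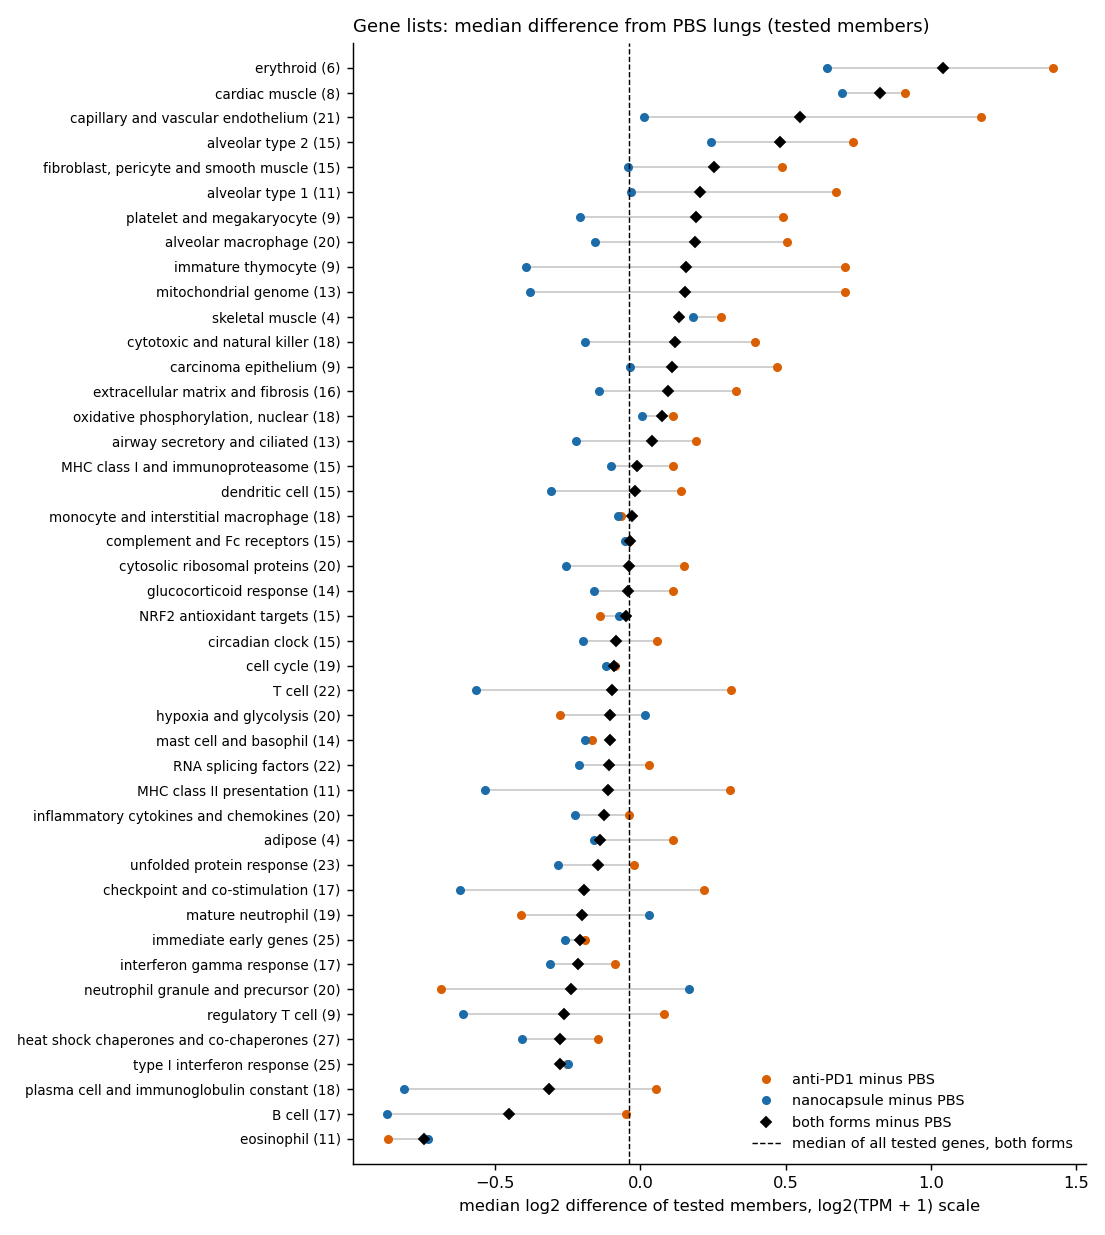
Median log2(TPM + 1) difference from PBS of the tested members of each gene list (number tested in brackets), for the free antibody, the nanocapsules and both, with a grey line joining the forms and a dashed line at the median of all tested genes (-0.04). Eosinophil genes had medians of -0.87 and -0.73 for the 2 forms, and endothelial genes 1.17 and 0.01.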

How the data were processed

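Gene-level TPM of 9 lung libraries were used as deposited. The authors' table carries the word salmon in its name. DESeq2 and the build GRCm38 appear in the submitters' processing notes, with no role or version. Genes reaching 1 TPM in 3 or more lungs entered the limma 3.58.1 model (R 4.3.3), which used log2(TPM + 1), a variance trend, 3 group means and 6 residual degrees of freedom. The contrast was the mean of both forms minus PBS, two-sided, with Benjamini-Hochberg adjustment. The fit was tested on simulated data. Lengths and positions came from GENCODE M21 for 13200 of the tested genes, and promoters from RefSeq.

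Members and lists were chosen with earlier results of these data known. The naming rule took called genes, then the smallest p among separated genes with at least 5 TPM on average, up to 12 in each direction, leaving out predicted genes, RIKEN clones, pseudogenes, bare clone names and variable, diversity or joining segments of antigen receptors, then up to 3 separated members of each list, and 13 genes whatever their values. In the lists 673 of 743 genes were tested. Alternatives changed pseudocounts, filters, scalings, the model and the libraries included. The length and GC correction and the omission of the library highest in Rag1 in each group were chosen after seeing the data.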

Additional observations from a re-analysis of the deposited data

Results flagged for a closer look

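In 2 of the named genes, 1 of the 6 treated lungs stood far from the others, measured as its gap to the nearest treated lung over the whole range. Mcpt4 was at 2.47 TPM in anti-PD1 lung 1, a share of 0.655, and Zfand1 was at 5.94 TPM in nanocapsule lung 1, a share of 0.769. Both exceed Dixon's 95% critical value for 6 samples, which chance passes in about 1 of 20 groups.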

How the results depend on the processing

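The number of genes called lower, 1 in the reported fit, was 0 without a filter on low values (1535 by limma at an unadjusted p under 0.05, either direction), 3 with a minimum of 5 TPM, 2 under median-of-ratios scaling, 2 with the treated lungs as 1 group, and 0 without the library highest in Rag1 in each group, where Hspa1b had a limma adjusted p of 0.132 (709 genes at an unadjusted p under 0.05). Leaving out 1 lung gave 1 to 4 called genes, 258 to 915 genes with all treated lungs below and 95 to 315 above, counts that can only grow with fewer lungs. The largest count below came without nanocapsule lung 3. Without the 3 libraries highest in Rag1 the counts were 624 and 760. Genes with all treated lungs above numbered 126 without a filter and 146 under median-of-ratios scaling, where 209 lay below and the share above among separated genes was 41.1% instead of 23.03%. It was 33.7% with TPM rescaled without S100a8, S100a9, mitochondrial, haemoglobin and immunoglobulin genes. Of the named genes, 0 were called between the forms, against 1 with a minimum of 5 TPM, 1 in the rescaled TPM, 6 with the replicate block and 0 to 5 with 1 lung left out.

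The replicate block left 1 gene called against PBS. Same-numbered lungs of different groups had correlations of their deviations of -0.18 to 0.28, and lungs with unlike numbers -0.26 to 0.22. With 3 lungs in a group and ranges that overlap, these values cannot decide whether the numbers pair the lungs.

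Values near 0 changed sign. S100a9 was 0.0157 under median-of-ratios scaling and 0.0164 after the length and GC correction. Without the libraries highest in Rag1, Cd274 was 0.0503 and Pdcd1 0.095. With 1 lung left out, the log2 differences ranged from -0.0942 to 0.124 for S100a9, -0.148 to 0.112 for S100a8, -0.484 to 0.107 for Pdcd1, -0.272 to 0.0236 for Cd274 and -0.34 to 0.0762 for Ifng. The share of S100a8 and S100a9 then differed by -1.02 to 1.32 percentage points and that of the mitochondrial genome by -0.117 to 0.886. Of 912 values of named genes, 888 kept direction and call. The cause of these shifts was not tested. TPM keep no depth, so counting error is unknown.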

Other observations

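The values of 4 separated genes outside the lists, picked after they were seen, are given here with no theme drawn from them. Timd4, a phosphatidylserine receptor, was at 2.23 ± 0.612 TPM in the treated lungs (SD, n = 6) and 4.05 ± 0.916 TPM in the PBS lungs (SD, n = 3). Folr2, a folate receptor, was at 1.64 ± 0.441 and 2.95 ± 0.375 TPM, and Fcna, a ficolin, at 9.38 ± 3.81 and 20.6 ± 7.14 TPM. These 3 genes are known from subsets of tissue macrophages, but in the pooled comparison the macrophage lists did not stand lower with them. Of 20 alveolar macrophage genes 17 had a higher mean in the treated lungs and 0 had all treated lungs below. Their median log2 difference was 0.50 for the free antibody and -0.16 for the nanocapsules. Of 18 monocyte and interstitial macrophage genes 0 separated, with a median log2 difference of -0.03. In the other direction Tnfsf13b, the B cell survival factor BAFF, was at 2.96, 3.06 and 2.73 TPM in the PBS lungs and between 4.01 and 6.70 TPM in the treated lungs. None of these 4 genes passed the limma test over all genes (limma adjusted p = 0.608 for each).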
